A study of Mus musculus with 2 samples.

Results

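Single cells sorted as cones by GFP were examined for 8 genes that move sodium and calcium ions against their gradients. These were the Na/K-ATPase beta subunits *Atp1b1*, *Atp1b2* and *Atp1b3*, the calcium ATPases *Atp2a2*, *Atp2b1* and *Atp2b2*, and the sodium/calcium-potassium exchangers *Slc24a1* and *Slc24a2*. They were taken by name from a list of such genes, and each of the 8 has a row among the 17774 deposited genes and was kept among the 15947 genes counted in 3 or more cells. The cells came from *Pde6c*.GFP mice, a cross of Pde6ccpfl1 with the Chrnb4.eGFP line on C57BL/6, so both groups carried the *Pde6c* mutation and GFP under the *Chrnb4* promoter, which labels cones. One group, of 82 cells kept, was uninjected. The other, of 64 cells kept, came from retinae given 1 intravitreal injection of GSK-J4 at PN14, in DMSO diluted with saline. The dose of 10 µM is the final concentration that the paper derives from an assumed free vitreous volume. GSK-J4 inhibits the Jumonji demethylases that remove methyl groups from H3K27. Both groups are labelled P24, which for the GSK-J4-treated retinae is 10 days after injection. The untreated group had no injection, so the injection itself and the compound cannot be told apart, and the number of animals behind each group is not given in the sources used here. Each condition was 1 library on 1 plate, so plate and treatment cannot be told apart either, no difference below has a replicate check, and no test was run. Intervals are 95% intervals and cover counting error only.

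In a photoreceptor, sodium and calcium enter the outer segment through cyclic nucleotide-gated channels that are open in the dark. Exchangers of the SLC24 family remove the calcium there, using the sodium and potassium gradients that the Na/K-ATPase of the inner segment maintains. Plasma membrane calcium ATPases (ATP2B) export calcium from the cell body and synaptic terminal, and the endoplasmic reticulum pump ATP2A2 (SERCA2) refills the internal store. In cones that lack functional PDE6C, cGMP is not broken down in the normal way and the channels can stay open, which is why these transporters are of interest in this mouse line.

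GSK-J4 inhibits demethylases of H3K27, whose methylation is mostly laid down at promoters rich in CpG dinucleotides. Per the paper, the compound also inhibits the Kdm5 family, which removes methyl groups from H3K4. No link between promoter sequence and level was tested. The promoters of the 2 genes that were higher in GSK-J4-treated cells and of the other exchanger are shown first, a choice made with these levels known. They are RefSeq promoters of GRCm38.p6, from 250 bases before to 50 after the start, on the minus strand, written 5′ to 3′ with CpG dinucleotides in capitals. No histone mark was measured in these cells.
Atp2b2, outermost start, chr6:114042031-114042330: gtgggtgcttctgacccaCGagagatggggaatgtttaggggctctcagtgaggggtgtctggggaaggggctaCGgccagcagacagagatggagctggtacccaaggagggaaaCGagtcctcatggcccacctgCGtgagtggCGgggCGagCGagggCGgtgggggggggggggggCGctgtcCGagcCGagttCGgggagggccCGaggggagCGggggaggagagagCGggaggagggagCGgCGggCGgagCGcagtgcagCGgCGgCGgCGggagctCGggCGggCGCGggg
Slc24a1, chr9:64951571-64951870: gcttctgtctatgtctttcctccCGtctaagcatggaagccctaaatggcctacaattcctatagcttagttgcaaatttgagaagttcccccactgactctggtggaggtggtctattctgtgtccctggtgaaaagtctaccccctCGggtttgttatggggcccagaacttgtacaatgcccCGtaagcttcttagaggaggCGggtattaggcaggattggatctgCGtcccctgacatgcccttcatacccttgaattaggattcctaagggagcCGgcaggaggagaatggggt
Slc24a2, outermost start, chr4:87230491-87230790: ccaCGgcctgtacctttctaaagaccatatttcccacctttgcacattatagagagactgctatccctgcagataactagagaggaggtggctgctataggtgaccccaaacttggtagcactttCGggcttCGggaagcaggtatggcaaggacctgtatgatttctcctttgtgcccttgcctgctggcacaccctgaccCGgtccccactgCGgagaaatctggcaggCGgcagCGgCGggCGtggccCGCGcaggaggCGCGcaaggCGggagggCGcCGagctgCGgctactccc
The *Atp2b2* window held 27 CpG, that of *Slc24a2* 17 and that of *Slc24a1* 6, against a median of 7 over 32851 RefSeq promoters of the same length. These 3 promoters had more CpG than 84.5%, 68.6% and 43.6% of all promoters, respectively. Other windows of the same genes held less, with 12 and 8 CpG for *Atp2b2* (more than 60.4% and 51.4% of promoters) and 3 for *Slc24a2* (more than 23.3%). RefSeq promoters were held for 6 of the 8 genes, 11 promoters in all, and not for *Atp1b2* and *Atp2a2*. The windows with the most CpG were the 2 of *Atp2b1*, with 54 and 45, a gene whose log-fold lay near 0. The letters TAATCC, the core bound by the photoreceptor factor CRX, and their reverse complement GGATTA were in none of the 11 windows on either strand, and 7.06% of all promoters hold them.

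Values are given as deposited counts, as the mean over cells of counts per 10000 counts of the cell, and as the log-fold, the natural log of that mean plus 1 in GSK-J4-treated cells minus the same in uninjected cells. The uninjected library held 1113424 counts and the GSK-J4-treated library 208578, with medians of 8118 and 2335.5 counts per cell. Of 11 cone marker genes, 11 had counts in uninjected cells, where they took 0.358 to 9.81% of the counts of a cell, and each of the 82 cells had a count of at least 1 of them. In the GSK-J4-treated library 6 had counts, *Opn1sw*, *Gngt2*, *Cngb3*, *Pde6c* and *Guca1a* were at 0, and 14 of 64 cells had a count of any. The other 50 cells had none, so there the cone label rests on few markers in a minority of cells. Rod markers took 0.581% and 0.0206% of all counts, with 12 and 8 of 12 detected. Müller glia markers took 0.137% and 0.0360%, with 9 of 10 detected in each library. The 2 plates shared 54 well positions among the cells kept. Among the 151 deposited cells, no uninjected cell had counts identical to those of a GSK-J4-treated cell. Pairs within a plate were not compared.

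The 8 genes together had 539 uninjected counts and 96 GSK-J4-treated counts, or 0.0484% and 0.0460% of all counts. At least 1 of them was counted in 63 of 82 uninjected cells (76.8%, 66.2 to 85.4%) and 34 of 64 GSK-J4-treated cells (53.1%, 40.2 to 65.7%), with a median of 1 gene per cell in both libraries. *Atp1b2* alone supplied 39.3% and 27.1% of these counts. By log-fold, 1 of the 8 was lower by more than 0.3 in GSK-J4-treated cells (*Atp1b2*), 2 were higher (*Atp2b2* and *Slc24a1*) and 5 lay between. Across all 15947 genes, 11.8% were lower and 12.6% higher by this size. Detection in 10% or more of the cells of 1 library was reached by 5 of the 8 genes (*Atp1b2*, *Atp2a2*, *Atp2b1*, *Atp2b2* and *Slc24a2*), of which 2 lay beyond 0.3. Of the 7682 genes that reached it, 44.4% lay beyond 0.3 in one direction or the other. The median log-fold of the 8 genes was 0.17, against 0.033 over all genes kept and -0.0050 over those in 10% of cells.

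**Figure D1:**
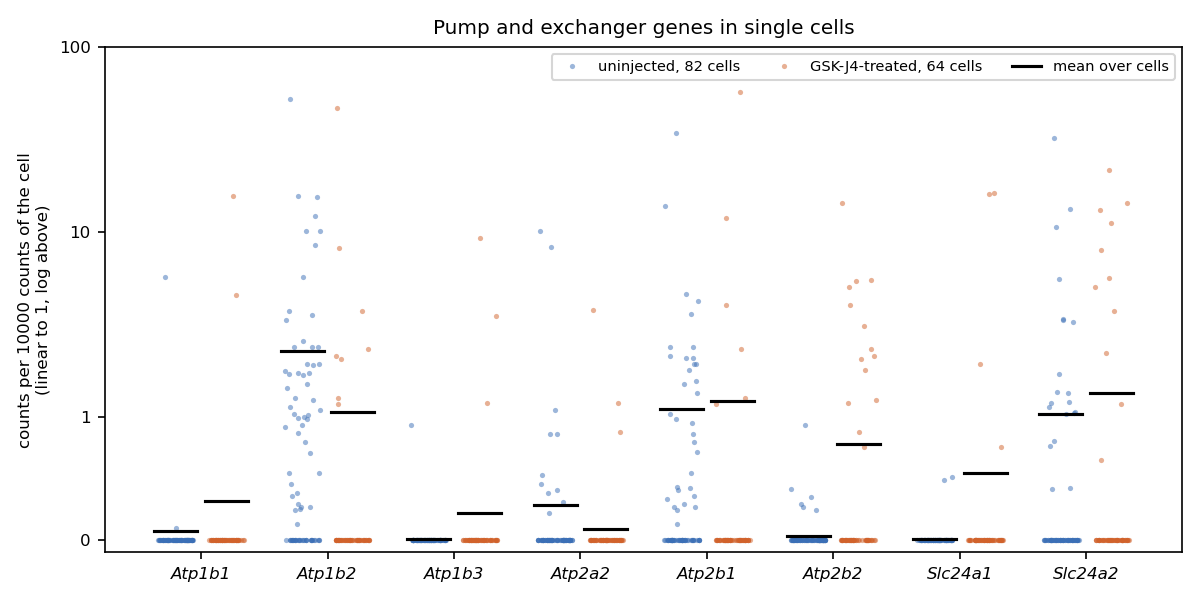
Counts per 10000 counts of the cell (vertical axis, linear to 1 and log above) for each gene in each cell, with uninjected cells in blue, GSK-J4-treated cells in orange and black bars for the mean over cells. Most cells lie at 0 for most genes, and the means of 2.26 and 1.06 for *Atp1b2* are carried by few high cells in the GSK-J4-treated library.

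The Na/K-ATPase beta subunits carry the catalytic alpha subunit to the membrane. *Atp1b2* (chr11:69599736-69605942, GRCm38, minus strand) was the beta subunit detected in most uninjected cells. Its counts per 10000 ran from 0 to 52.6 in uninjected cells with a median of 0.498, and from 0 to 46.9 in GSK-J4-treated cells with a median of 0. It had 212 counts (184 to 243) in 50 of 82 uninjected cells (61.0%, 49.6 to 71.6%) and 26 counts (17 to 38.1) in 8 of 64 GSK-J4-treated cells (12.5%, 5.55 to 23.2%). The ranges of the libraries overlapped nearly in full, while the share of cells with a count was lower in the GSK-J4-treated library. The mean per 10000 was 2.26 and 1.06, a log-fold of -0.46. The ratio of summed rates was 0.655 (0.418 to 0.986).

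Single cells carried much of these *Atp1b2* values. In uninjected cells the highest counts were 45, 39 and 21, and 32 of the 50 positive cells had 1 count. In the GSK-J4-treated library the cell in well A02 had 19 of the 26 counts (73.1%), and the other 7 positive cells had 1 count each. Without the cell of highest value per 10000 in each library, 173 (148 to 201) and 7 (2.81 to 14.4) counts were left and the ratio was 0.219 (0.0867 to 0.461). Thinned to 867 counts per cell, the expected share of cells with a count was 12.6% and 5.61%, a narrower gap than that between 61.0% and 12.5% at full depth. Müller glia also express *Atp1b2*. The summed Müller glia markers had a median of 0.0526% in uninjected cells with a count of the gene (0 to 4.08%) and 0.0700% in those without (0 to 1.77%). In GSK-J4-treated cells the medians were 0.0220% with the gene (0 to 0.127%) and 0 without (0 to 0.650%). Their part in the result was not tested.

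The other beta subunits were close to the limit of detection. *Atp1b1* (chr1:164437109-164458355), the subunit paired with alpha subunits in many tissues, had 2 counts in 2 cells of each library (0.242 to 7.22). Its exons share 575 bases with *Nme7* on the other strand, and use of strand in the counting is not stated in the sources used here. *Atp1b3* (chr9:96332655-96364442) had 1 uninjected and 3 treated counts, with log-folds of 0.19 for it and 0.21 for *Atp1b1*. The ratio of summed rates was 16.0 for *Atp1b3*, with an interval from 1.29 to 841 that shows how little 4 counts can tell.

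The store pump *Atp2a2* (chr5:122453513-122502225, minus strand) had 51 counts (38.0 to 67.1) in 11 uninjected cells (13.4%, 6.89 to 22.7%) and 3 counts (0.619 to 8.77) in 3 GSK-J4-treated cells (4.69%, 0.977 to 13.1%). The mean per 10000 was 0.286 and 0.0913, a log-fold of -0.16, with a summed ratio of 0.314 (0.0627 to 0.971). One uninjected cell, in well D12, held 37 of the 51 counts (72.5%). Without that cell 14 counts were left (7.65 to 23.5) and the ratio was 1.10 (0.202 to 3.93), so the lower summed rate rested on 1 cell. The same cell had the highest *Atp1b2* count, 45, and 16 of *Atp2b1*, in all 98 of the 539 counts of the 8 genes. It was the fourth deepest uninjected cell, with 44681 counts, and cone markers took 4.34% of them, rod markers 0.821% and Müller glia markers 0.148%.

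Of the plasma membrane calcium pumps, *Atp2b1* (chr10:98914406-99026143, plus strand), the form found in most cell types, had 91 counts (73.3 to 112) in 33 uninjected cells (40.2%, 29.6 to 51.7%). In GSK-J4-treated cells it had 18 counts (10.7 to 28.4) in 6 cells (9.38%, 3.52 to 19.3%). The share of cells was lower, while the mean per 10000 was 1.11 and 1.22 and the log-fold 0.05, with a summed ratio of 1.06 (0.599 to 1.76). After thinning the shares were 6.43% and 2.85%. Of the 18 treated counts, 10 lay in the cell of well F05 and 4 in that of well H03. The cell in H03 had only 698 counts in all, so those 4 counts made 57.3 per 10000, the highest value of any of the 8 genes in either library. With cells of at least 500 genes alone, which leaves that cell out, the log-fold was -0.44.

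*Atp2b2* (chr6:113743831-114042613, minus strand), a pump known from hair cells and neurons, was counted more often in GSK-J4-treated cells. In uninjected cells 6 cells had 1 count each (7.32%, 2.73 to 15.2%), for a total of 6 (2.20 to 13.1). In the GSK-J4-treated library 14 cells had a count (21.9%, 12.5 to 34.0%), for a total of 18 (10.7 to 28.4) out of a smaller library. The highest treated cell had 4 counts, the next 2, and the other 12 had 1 each. The mean per 10000 was 0.0304 and 0.779, a log-fold of 0.55, and the summed ratio was 16.0 (6.09 to 49.3). Thinned shares were 0.267% and 7.69%. The value did not rest on 1 cell, since the ratio without the highest cell of each library was 15 (5.11 to 53.2). The log-fold was above 0.3 under each of the 10 alternatives tried, from 0.43 to 1.91.

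The level of *Atp2b2* was low enough that it was set beside genes that photoreceptors do not use. Counts were not divided by length for this, and *Atp2b2* is a long gene, with 12612 exon bases. The 396 olfactory and vomeronasal receptor genes kept (symbols starting with Olfr or Vmn) had a median of 4 uninjected and 3 treated counts, and 90th percentiles of 17.5 and 9. Of these genes 13.6% were higher by more than 0.3 in GSK-J4-treated cells and 0.758% lower. As many or more counts than *Atp2b2* were found for 36.6% of them on the uninjected and 4.80% on the treated plate. By undivided counts the uninjected value was within this background and the treated value above that of most receptor genes. The lengths of the receptor genes were not compared, so no level per base relative to this background is given. The antisense gene *Gm15082* at the *Atp2b2* locus shares no exon base with it and had 4 and 0 counts.

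The exchangers differed in detection. *Slc24a1* (chr9:64922861-64951607, minus strand), the exchanger of rod outer segments, had 6 counts (2.20 to 13.1) in 2 uninjected cells and 7 (2.81 to 14.4) in 4 GSK-J4-treated cells. The uninjected cell in well C12, with the most counts of any cell (98250), had 5 of the 6. The treated cells had 3, 2, 1 and 1. The shares of cells were 2.44% (0.297 to 8.53%) and 6.25% (1.73 to 15.2%), the mean per 10000 was 0.0122 and 0.546, and the log-fold was 0.42 with a summed ratio of 6.23 (1.79 to 22.4). Thinned shares were 0.106% and 3.98% of 81 and 50 cells, near the 2% that a single treated cell makes. Receptor genes with as many or more counts made up 36.6% on the uninjected and 17.4% on the treated plate. Rod markers had 0 counts in the 4 treated cells with *Slc24a1*, but their median was also 0 in the 60 treated cells without it (0 to 0.409%). They took 0.186% and 0.294% of the counts of the 2 uninjected cells with the gene, against a median of 0.454% in those without. Without the highest cell of each library the log-fold was 0.25, and with median-ratio size factors 0.15.

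*Slc24a2* (chr4:86983124-87230477, minus strand), an exchanger described in cones, had 170 counts (145 to 198) in 20 uninjected cells (24.4%, 15.6 to 35.1%). In GSK-J4-treated cells it had 19 counts (11.4 to 29.7) in 11 cells (17.2%, 8.90 to 28.7%). In uninjected cells 3 cells with 80, 37 and 13 counts held most of the total, the first alone 47.1%. The highest GSK-J4-treated cells had 6 and 4 counts and the other 9 had 1 each. The direction depended on the measure, since the mean per 10000 was 1.04 and 1.35 (log-fold 0.14) while the ratio of summed rates was 0.597 (0.351 to 0.961). The share of cells was 5.74% and 9.79% after thinning, the opposite order to that before it. No direction is therefore given for this gene. Cone markers took a median of 1.95% of the counts of uninjected cells with *Slc24a2* (0.624 to 6.98%) and 1.87% of those without (0.358 to 9.81%).

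**Figure D2:**
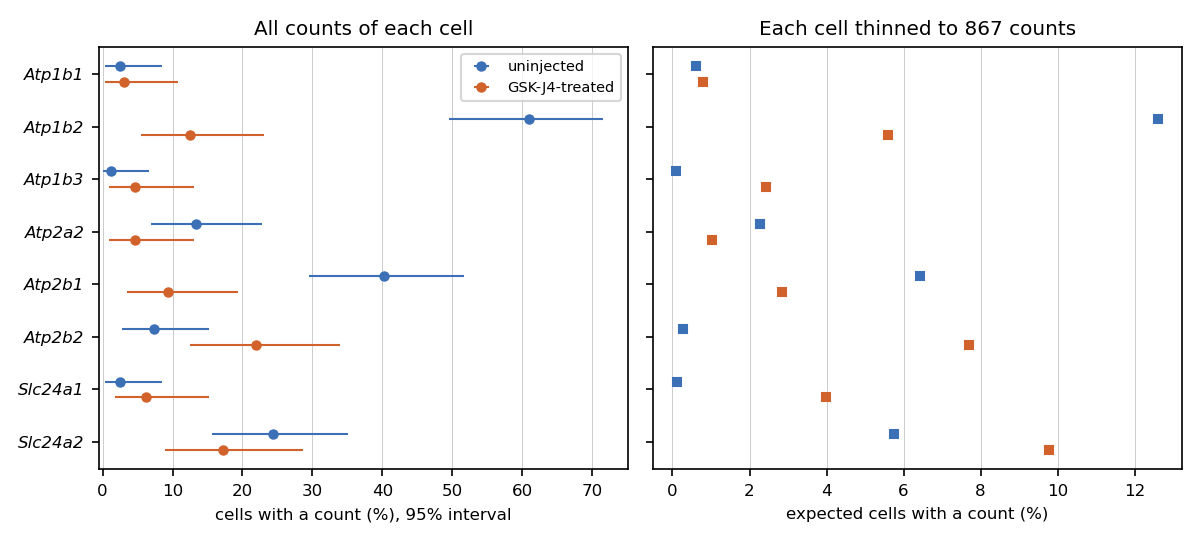
Share of cells with a count of each gene, at full depth with 95% Clopper-Pearson intervals (left) and expected after thinning each cell to 867 counts (right, no interval), for uninjected (blue) and GSK-J4-treated (orange) cells. For *Atp1b2* the share was higher in uninjected cells in both panels (61.0% against 12.5%, and 12.6% against 5.61%), for *Atp2b2* it was higher in GSK-J4-treated cells in both, and for *Slc24a2* the order changed with thinning.

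To compare the genes with one another, summed counts per 10000 were divided by exon length in kb, although 3′ and 5′ reads were counted and need not scale with length. In uninjected cells *Atp1b2* was highest at 0.466 (0.405 to 0.533), followed by *Slc24a2* at 0.125 (0.107 to 0.145), *Atp2a2* at 0.0753 (0.0561 to 0.0990) and *Atp2b1* at 0.0537 (0.0432 to 0.0659) counts per 10000 per kb. The intervals of the last pair overlapped. *Slc24a1* at 0.0103 (0.00379 to 0.0225), *Atp1b1* at 0.00583, *Atp2b2* at 0.00427 and *Atp1b3* at 0.00376 were lower than these, with intervals that overlapped one another. Without the cell of well D12 *Atp2a2* was at 0.0215. By the mean over cells per kb the order was *Atp1b2* at 0.554, *Slc24a2* at 0.0850, *Atp2b1* at 0.0727, *Atp2a2* at 0.0471, *Atp1b1* at 0.0230, *Atp1b3* at 0.00476, *Atp2b2* at 0.00241 and *Slc24a1* at 0.00234, so the places of *Atp2a2*, *Atp2b1* and the 4 lowest genes depended on the measure. In GSK-J4-treated cells *Atp1b2* was again highest by summed counts at 0.305 (0.199 to 0.447), but it was 0.0838 without its highest cell. The other 7 genes lay between 0.0237 (*Atp2a2*) and 0.0746 (*Slc24a2*), each with an interval that overlapped that of its neighbour.

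The position of a cell on the plate went with several of these genes. In uninjected cells 167 of the 170 *Slc24a2* counts lay in columns 1 to 6, in 17 of 39 cells, and 3 in columns 7 to 12, in 3 of 43 cells. The mean per 10000 was 2.03 and 0.136. On the GSK-J4-treated plate the same side held 16 of 19 counts, in 8 of 33 against 3 of 31 cells, with means of 2.46 and 0.178. The log-fold of *Slc24a2* between treatments was small on both sides, 0.13 in columns 1 to 6 and 0.04 in columns 7 to 12, so side went with a larger difference than treatment for this gene. *Atp1b2* lay the other way in uninjected cells, with 31 counts in columns 1 to 6 (18 of 39 cells, 0.740 per 10000) and 181 in columns 7 to 12 (32 of 43 cells, 3.65 per 10000). On the GSK-J4-treated plate it had 22 and 4 counts, in 4 cells on each side, and 19 of the 22 were in 1 cell. Its log-fold was therefore 0.47 in columns 1 to 6 and -1.28 in columns 7 to 12, a change of direction, and the lower level of *Atp1b2* in GSK-J4-treated cells held on 1 side of the plate and not on the other.

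**Figure D3:**
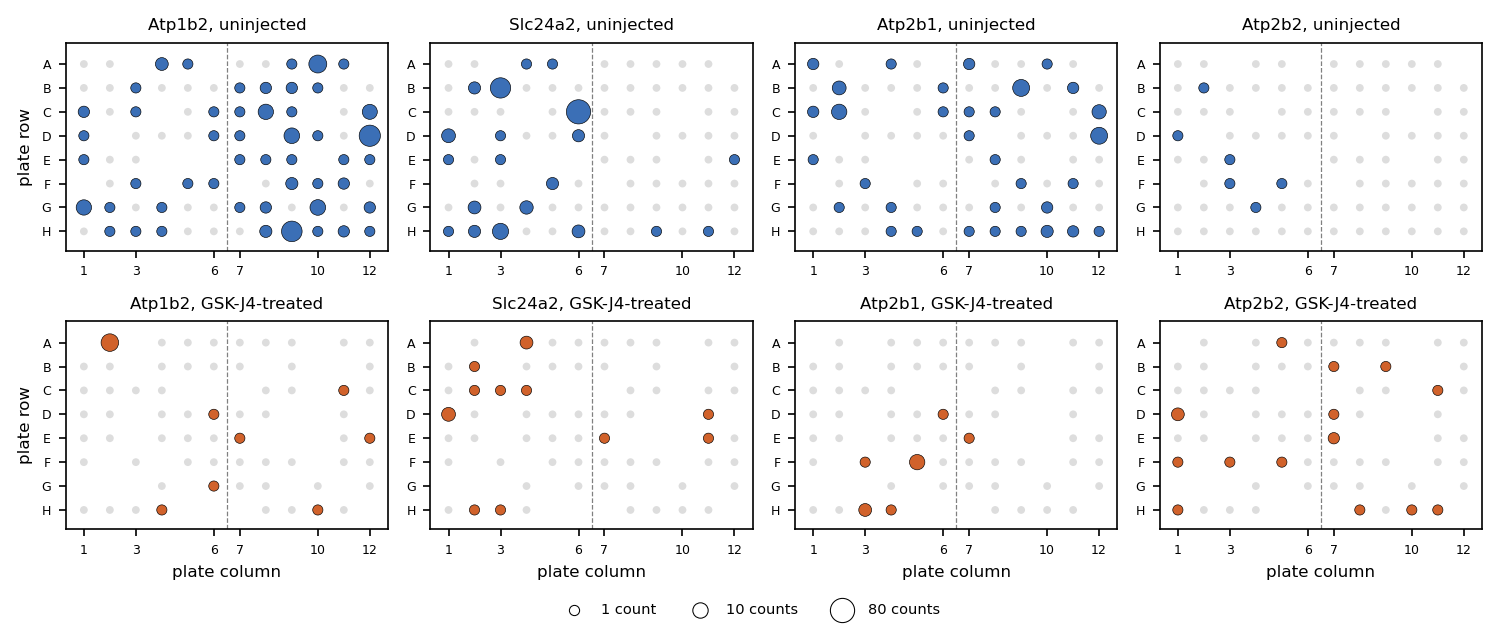
Wells of the uninjected plate (top, blue) and the GSK-J4-treated plate (bottom, orange) by column and row, with grey dots for kept cells without a count and circle area rising with the count; the dashed line separates columns 1 to 6 from 7 to 12. *Slc24a2* counts lie mainly left of the line on both plates (167 of 170 and 16 of 19), *Atp1b2* counts mainly right of it on the uninjected plate (181 of 212).

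The remaining genes had fewer counts. *Atp2a2* had 3 and 48 uninjected counts in columns 1 to 6 and 7 to 12. *Atp2b1* had 29 and 62 counts in uninjected cells but means of 1.27 and 0.961 per 10000, and 17 and 1 counts in GSK-J4-treated cells, with means of 2.33 and 0.0377. The 6 uninjected *Atp2b2* counts were all in columns 1 to 6, while the 18 treated counts were split 9 and 9, and its log-fold was 0.61 and 0.47 on the 2 sides. *Slc24a1* had 0 and 6 uninjected counts and 7 and 0 treated counts, so its log-fold was 0.72 in columns 1 to 6 and -0.023 in columns 7 to 12. *Atp1b1* counts lay in columns 7 to 12 on both plates, and the 1 uninjected count of *Atp1b3* in columns 1 to 6. Between the sides of the uninjected plate, 3 of the 8 genes differed by more than 0.3 log-fold (*Atp1b2* 0.98, *Atp2a2* 0.40 and *Slc24a2* -0.98, columns 7 to 12 minus columns 1 to 6), as did 17.4% of all 15947 genes. Median depth was 8819 and 7163 counts per cell on the 2 sides of the uninjected plate and 1843 and 2692 on the GSK-J4-treated plate. The labels do not say what the sides of a plate held, and their part in the results was not tested.

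Wells at the same position of both plates were set side by side, because both plates carry well barcodes. Among the 26 wells of columns 1 to 6 kept on both plates, *Slc24a2* was counted on both in 5, on the uninjected plate alone in 6, on the GSK-J4-treated plate alone in 2 and on neither in 13. The well D01 had 6 *Slc24a2* counts on each plate, of 10733 and 2779 counts in all. For *Atp2b2* the same numbers were 3, 2, 2 and 19, and for *Atp1b2* 2, 12, 2 and 10. In columns 7 to 12, 28 wells were kept on both, with *Slc24a2* on both plates in 0 and *Atp1b2* in 3. Whether counts passed between plates was not tested.

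**Figure D4:**
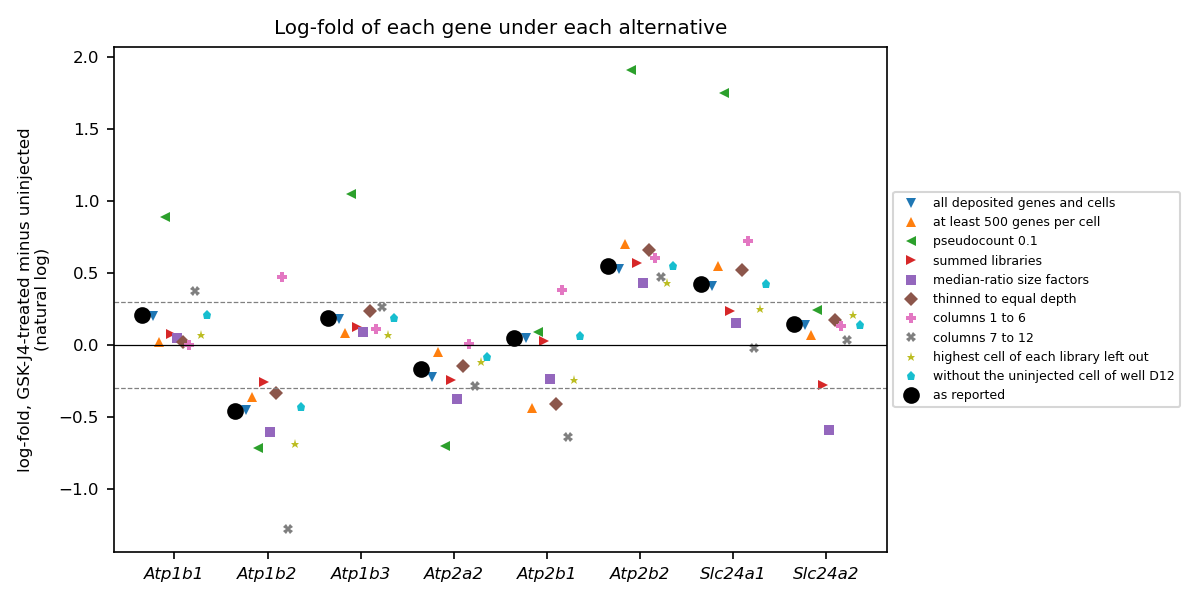
Log-fold of each gene (natural log, GSK-J4-treated minus uninjected) as reported (black circle) and under 10 alternatives (coloured symbols), with dashed lines at -0.3 and 0.3. *Atp2b2* lies above 0.3 throughout (0.43 to 1.91), and *Atp1b2* runs from -1.28 to 0.47. *Slc24a2* lies within 0.3 of 0 except at -0.59 with median-ratio size factors. That alternative also sums each library, and summing alone gave -0.28 for *Slc24a2*.

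GSK-J4-treated cells were also split by cone markers, since 14 of the 64 had a count of at least 1. Of the 26 treated *Atp1b2* counts 21 lay in these 14 cells, in 3 cells, though the A02 cell that had 19 of them had cone markers at 0.0247% of its counts only. Of the 18 *Atp2b2* counts 15 lay in the 50 cells without a cone marker, in 11 of 50 cells (22.0%, 11.5 to 36.0%) against 3 of 14 (21.4%, 4.66 to 50.8%). *Slc24a2* had 14 of 19 counts in the cells without a cone marker (9 of 50 cells, against 2 of 14). Cells with a cone marker were deeper, with a median of 3839.5 counts against 1826.5, so these shares are not at equal depth.

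Genes that work with these transporters were described from 4 lists, whose counts stand beside the 11.8% lower and 12.6% higher of all genes kept, or 44.4% beyond 0.3 of genes detected in 10% of cells. Of 22 kept genes of the pump list (other pump subunits and their regulators), 3 were lower by more than 0.3 and 1 higher. *Bsg* (basigin), an immunoglobulin-family protein of the photoreceptor membrane that also associates with transporters, had 275 and 0 counts. Set against 3 counts, the floor for a treated library without a count, this is 17.2-fold lower, and the interval of the ratio ran from 0 to 0.0721. The regulator *Fxyd6* had 38 and 3 counts (log-fold -0.34, ratio 0.421, 0.0832 to 1.33). *Nkain2*, whose product binds a beta subunit, had 1 and 9 counts (log-fold 0.31, ratio 48.0, 6.66 to 2106). Its log-fold was just over 0.3, and it met the 10% detection rule on the treated plate alone (1.22% and 12.5% of cells). *Bsg* and *Fxyd6* met that rule on the uninjected plate alone. The median of the list was 0.10, or 0.11 with genes without treated counts set at the floor.

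*Atp1b2* alone among the 8 genes was counted in 50% or more of uninjected cells, and of 792 genes so detected those with the highest Spearman correlation with it across the 82 uninjected cells, on counts per 10000, were *Ift20* (0.54), *Rpl26* (0.48) and *Slc38a1* (0.47), against a median of 0.09. These correlations are a description, since the cells share a library, differ in depth and differ by plate side, and *Slc38a1* and *Ift20* were also higher in columns 7 to 12 (4.64 against 0.786 and 2.60 against 1.02 per 10000).

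Of 6 kept genes in the exchanger list, 0 lay beyond 0.3 in either direction, with a median of 0.0021, or 0.05 with genes at 0 set at the floor. The sodium/calcium exchanger *Slc8a3* had 252 counts, in 39 cells, on the uninjected plate and 17, in 8 cells, on the treated plate. Its log-fold was -0.25 and its ratio 0.360 (0.206 to 0.588), with thinned shares of 9.85% and 6.09%. The order of its means per 10000 changed with plate side. Columns 1 to 6 had 1.07 on the uninjected and 1.30 on the treated plate, and columns 7 to 12 had 1.80 and 0.513. Of the 252 uninjected counts 95 lay in 1 cell. Of the 13 treated counts in columns 1 to 6, 8 lay in 1 cell. Of 18 genes for calcium stores and mitochondrial uptake, 3 were lower and 2 higher, with a median of 0.06. *Smdt1* (EMRE), an essential part of the mitochondrial uniporter, had 289 and 2 counts (log-fold -1.42, ratio 0.0369, 0.00445 to 0.135). The release channels *Itpr1* (138 and 67 counts, log-fold 0.65, ratio 2.59, 1.91 to 3.49) and *Ryr1* (315 and 162, log-fold 0.56, ratio 2.75, 2.26 to 3.33) were higher. *Itpr2* (521 and 179) had a log-fold of -0.78 but a summed ratio of 1.83 (1.54 to 2.18), so its direction depended on the measure. Of 7 kept calcium-binding genes 3 were lower and 0 higher, with a median of -0.29. Among these were the calmodulin genes *Calm2* (435 and 0 counts, 27.2-fold lower at the floor, interval of the ratio 0 to 0.0455) and *Calm3* (105 and 1, log-fold -0.83, ratio 0.0508, 0.00128 to 0.290). Calmodulin activates the plasma membrane calcium pumps. Beside these low counts, the median mitochondrial share of a cell's counts was 0.952% on the uninjected and 0.0146% on the treated plate, and the ribosomal protein gene *Rpl26* had 810 and 0 counts. Their part in the result was not tested.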

How the data were processed

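The authors sequenced GFP-positive cells sorted 1 per well, aligned reads in the CLC Genomics Workbench, removed PCR duplicates by UMI and position, counted reads per gene with featureCounts and deposited unnormalized whole-number counts, summed over 3′ and 5′ reads. Per the labels the genome build is GRCh38, a human build number, so coordinates here come from GENCODE vM21 on GRCm38. Kept were genes counted in 3 or more cells, and cells with 200 genes or more and no more than 5% mitochondrial counts. Counts were scaled to 10000 per cell and averaged per library, in the form of Seurat v.2, and the size of 0.3 was that of the methods. The P-value of the methods treats cells as replicates and was not used, nor was a batch correction. No doublet caller was run. Columns of the deposited counts were assigned to the libraries by cell name, where those of the GSK-J4-treated plate hold the word adult. Intervals are exact Poisson for sums, Clopper-Pearson for shares and exact conditional for ratios, at 95%. A gene without a count was given a floor of 3 counts over the library, which is 0.0269 and 0.144 per 10000 in the uninjected and GSK-J4-treated libraries. Thinning was computed as the expectation over draws without replacement to 867 counts (10th percentile of depth), with 1 shallower cell of the uninjected and 14 of the treated plate left out. Pathway genes were named when beyond 0.3 and detected in 10% of the cells of a library or more, at most 5 per direction, and some genes of the lists are not reported here. *Slc8a3*, the wells named and the genes whose promoters are printed were chosen after their values were seen. The members and lists were chosen with earlier results of these data known. Calculations used scipy 1.17.1, numpy 2.4.6 and pandas 2.3.3 under Python 3.11.15 and were tested on simulated data.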

Additional observations from a re-analysis of the deposited data

How the results depend on the processing

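Of 80 log-folds of the 8 genes under 10 alternatives, 65 stayed within approximate bounds, 13 went outside them and 2, of genes beyond 0.3, changed sign. The bounds scale each mean over cells by the Poisson interval of the gene's summed counts. They do not allow for the greater weight of a count in a shallow cell, so they are not the full counting error of the log-fold. The 2 that changed sign were *Atp1b2*, at 0.47 in columns 1 to 6, and *Slc24a1*, at -0.023 in columns 7 to 12. For *Atp1b2* 19 of the 22 treated counts on that side lay in 1 cell. Of the genes within 0.3 of 0, *Atp2b1* kept its sign under 5 of the 10 alternatives, *Slc24a2* under 8 and *Atp2a2* under 9. The number of genes lower by more than 0.3 was 2 with at least 500 genes per cell, with a pseudocount of 0.1, with thinning and in columns 7 to 12, was 3 with median-ratio size factors, and was 0 with summed libraries and in columns 1 to 6. The number higher was 4 with a pseudocount of 0.1 and in columns 1 to 6, and 1 with median-ratio size factors, with summed libraries and without the highest cell of each library. The median log-fold of the 8 genes was 0.57 with a pseudocount of 0.1. The median with that pseudocount was 0.18 over all genes kept and -0.017 over those in 10% of cells. Median-ratio size factors, computed on the summed libraries, moved the median of genes in 10% of cells to -0.14, against -0.0048 with summing alone. Leaving out the uninjected cell of well D12, an alternative chosen after seeing the data, gave log-folds of -0.43 for *Atp1b2* and -0.08 for *Atp2a2*. The cause of these changes was not tested, apart from the choice of wells or cells itself. Depth limits the treated library, where 6 of the 8 genes had 18 counts or fewer.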
